A study of Zea mays with 36 samples.

Results

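The 92 maize genes described here had transcripts that were present in the young embryo and nearly gone from the old one, both in a high-oil and in a low-oil line. They were chosen by their RPKM values (reads scaled for feature length and library size) at the first and last ages sampled. A gene was taken when its mean over 3 libraries was at least 20 RPKM at 15 days after pollination in both lines and below 1 RPKM at 40 days in both lines. The rule selected 92 of the 44146 annotated gene IDs in a table of 63340 features, and 92 of the 5733 gene IDs (1.6%) that had at least 20 RPKM at 15 days in both lines. The other 5641 are called the other early genes below. The values at 15 and 40 days chose the genes, so they are given as a description, and tests compared only the ages of 20, 25, 30 and 35 days. The fit behind these tests took its estimate of the spread from all 36 libraries, those of 15 and 40 days among them.

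Embryos of both lines were taken every 5 days between 15 and 40 days after pollination, which gave 12 groups of 3 libraries each. All seeds had stood in water overnight before the embryos were dissected, so every group carries this soaking. Each oil level is a single line, the labels name neither line, and no source used here says if the 3 libraries of a group are from different plants or ears, so p-values measure the spread between these libraries, which may be partly technical. Library totals were 41247297 to 66760746 reads assigned to features. The mean correlation of a library with the other 2 of its group was 0.934 to 0.98, lowest for library 1 of high-oil day 40 (0.934), library 2 of high-oil day 35 (0.938) and library 1 of low-oil day 40 (0.941). The files do not pair the gene IDs with names, and 0 of the 44146 IDs matched a reference table of 49888 genes of another assembly. The genes are therefore given by ID, with no function, and the tissue could not be checked against marker genes.

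Around the youngest of these ages a maize embryo is still forming organs and dividing, and its scutellum, the storage organ that holds most of the oil of the kernel, is beginning to fill. Growth then gives way to storage and later to drying. The level of a transcript reflects its synthesis and its decay, and in whole embryos fewer cells of a type cannot be told apart from less RNA per cell.

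The 92 genes covered a wide range of levels at 15 days. Their group means at 15 days had a median of 39.2 RPKM in high-oil embryos, with a range of 21.0 to 632, and a median of 32.7 RPKM in low-oil embryos, with a range of 20.0 to 436. Together they took 0.793% ± 0.129 (SD, n = 3) of the reads at 15 days in high-oil embryos and 0.663% ± 0.0761 in low-oil embryos. At 40 days they took 0.00663% ± 0.00172 in high-oil embryos and 0.00465% ± 0.00187 in low-oil embryos. The other early genes had medians of 43.9 RPKM at 15 days and 25.5 RPKM at 40 days in high-oil embryos, and 45.2 and 27.1 RPKM in low-oil embryos. The feature lengths implied by the RPKM values had a median of 1642 bases for the 92 genes, against 1429 for the other early genes and 1346 for the 35686 annotated gene IDs with any reads.

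Zm00001d029526 was the most abundant of the set at 15 days. It had 677, 518 and 699 RPKM in the high-oil libraries and 359, 563 and 386 RPKM in the low-oil libraries of that age. Its means from 15 to 40 days were 632, 170, 16.8, 5.63, 0.407 and 0.328 RPKM in high-oil embryos. In low-oil embryos they were 436, 183, 13.1, 2.07, 0.22 and 0.215 RPKM. The course was steepest at about the same ages in both lines, and the 2 oldest groups of each line had almost the same level. Zm00001d042527 came next at 15 days, with means of 347, 88.4, 18.1, 10.6, 0.681 and 0.64 RPKM over the 6 ages in high-oil embryos and 300, 124, 19.1, 6.54, 0.7 and 0.449 RPKM in low-oil embryos. These 2 genes and Zm00001d038647, Zm00001d034062, Zm00001d010039, Zm00001d013268, Zm00001d027939, Zm00001d033919, Zm00001d046330 and Zm00001d013323 were the 10 most abundant at 15 days, and the last of them averaged 79.3 RPKM over both lines.

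At the edges of the rule the genes did not stand apart from their neighbours. Zm00001d022597, with 21.0 RPKM at 15 days in high-oil embryos and 20.0 in low-oil embryos, and Zm00001d027291, with 22.4 and 20.0 RPKM, lay just inside. Zm00001d039498, with 22.7 RPKM in high-oil embryos and 19.5 in low-oil embryos, and Zm00001d027883, with 27.2 and 19.2 RPKM, lay just outside. At 40 days Zm00001d032565, with 0.999 RPKM in high-oil embryos and 0.32 in low-oil embryos, and Zm00001d003085, with 0.895 and 0.995 RPKM, were just inside. Zm00001d012165, with 1.01 and 0.411 RPKM, and Zm00001d047970, with 0.883 and 1.03 RPKM, were just outside. Of the 5733 early genes, 13 were below 1 RPKM at 40 days in high-oil embryos only, 30 in low-oil embryos only and 5598 in neither.

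Low was not the same as absent. At 40 days the median gene still had 78 reads over the 3 high-oil libraries and 53 reads over the 3 low-oil libraries. Only 2 genes, Zm00001d029185 and Zm00001d012498, had 0 reads in all 3 high-oil libraries, and 4 genes, Zm00001d027589, Zm00001d051697, Zm00001d013143 and Zm00001d040381, had 0 reads in all 3 low-oil libraries. A count of 0 over a group allows up to 3 reads, for counting error only.

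The decline was spread over several ages, and little of it remained after 35 days. The median of the 92 group means was 39.2, 10.9, 3.12, 1.93, 0.445 and 0.324 RPKM from 15 to 40 days in high-oil embryos, and 32.7, 14, 3.53, 1.19, 0.396 and 0.224 RPKM in low-oil embryos. The median gene was 3.36-fold lower at 20 than at 15 days in high-oil embryos and 2.53-fold lower in low-oil embryos. It was 3.82-fold lower at 25 than at 20 days in high-oil embryos and 4.04-fold lower in low-oil embryos. At 30 days it was 1.65-fold lower than at 25 days in high-oil embryos and 3.3-fold lower in low-oil embryos. At 35 days it was 4.16-fold lower than at 30 days in high-oil embryos and 3.25-fold lower in low-oil embryos.

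**Figure D1:**
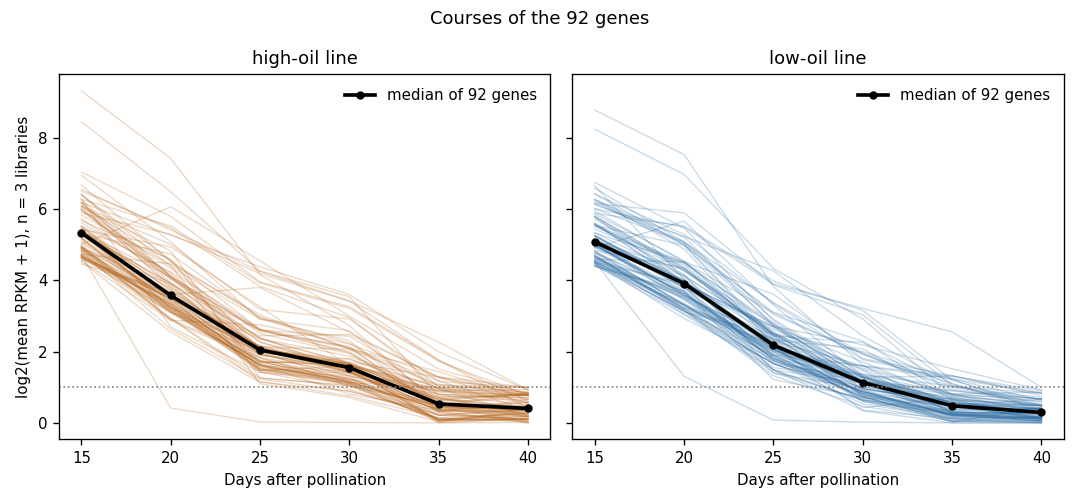
Courses of the 92 genes over 6 ages, as log2 of the mean RPKM of 3 libraries plus 1, in the high-oil (left) and low-oil (right) lines. Thin lines are single genes, the black line is their median, and the dotted line marks 1 RPKM. The high-oil median flattens between 25 and 30 days, where it is 3.12 and 1.93 RPKM, and the low-oil median does not. The interaction of line with this step gave 0 calls.

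By median, the high-oil line had made more of its fall at 20 and 25 days and less at 30 days. On the log2(RPKM + 1) scale, the median gene had made 35.2% of its fall between 15 and 40 days by 20 days in high-oil embryos and 26.1% in low-oil embryos. By 25 days it had made 68.1% in high-oil embryos and 60.6% in low-oil embryos. By 30 days it had made 78.6% in high-oil embryos and 84.1% in low-oil embryos, and by 35 days 97.9% and 96.6%. The age at the middle of the fall, read between neighbouring ages on straight lines, had a median of 22.3 days in high-oil embryos and 23.5 days in low-oil embryos, and it was earlier in high-oil embryos for 77 of 92 genes. The age from which a gene stayed below 1 RPKM ran the other way: it was later in high-oil embryos for 37 genes, the same for 51 and earlier for 4. At 30 days 7 genes were already below 1 RPKM in high-oil embryos and 39 in low-oil embryos. These ages rest on the values that chose the genes at 15 and 40 days and carry no test.

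The tests between neighbouring ages used limma on log2(RPKM + 1) with both lines averaged, over all 28048 features that reached 1 RPKM in 3 or more libraries, as all 92 genes did. A gene was called when its adjusted p was below 0.05 and its change was at least 1 log2 unit. Because the set was chosen to be high at 15 and low at 40 days, a fall somewhere between was built in, but not its place. Between 20 and 25 days 87 of 92 genes were called lower, against 3.02% of all features. The median log2 change was -1.74 (all features -0.11), with a range of -3.77 to -0.50. Between 25 and 30 days 17 of 92 were called lower, against 0.535% of all features, with a median of -0.74 (all features -0.07). Between 30 and 35 days 24 of 92 were called lower, against 1.01% of all features, with a median of -0.79 (all features -0.01). Called or not, all 92 genes had a change below 0 at each of these 3 steps, which the rule favours. By the adjusted p alone the counts of lower genes were 92, 49 and 61, against 20.5%, 3.41% and 5.21% of all features. Of the other early genes, 6.15%, 0.833% and 2.84% were called lower at these 3 steps, with median log2 changes of -0.36, -0.18 and -0.09. No gene of the set was called higher at any of these 3 steps, against 2.26%, 0.371% and 0.738% of all features. The rule itself makes such calls unlikely, so this comparison is no result about the set.

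The later 2 counts depended on the settings more than the earliest one. Adding 1 to every value compresses changes among low values. With 0.1 in its place 25 genes were called lower between 25 and 30 days and 73 between 30 and 35 days. The count for 25 to 30 days was 32 without library 3 of low-oil day 25, 31 without library 3 of high-oil day 30 and 7 without library 2 of low-oil day 25. It was 8 without library 2 of high-oil day 25, 10 without library 2 of high-oil day 30 and 11 without library 1 of low-oil day 25, while the count for 20 to 25 days stayed between 86 and 88 whichever library was left out.

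The 5 genes not called between 20 and 25 days were Zm00001d027291, Zm00001d050061, Zm00001d028210, Zm00001d051697 and Zm00001d011834.

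The largest fall between 20 and 25 days was that of Zm00001d029526, which had 10.6, 34.9 and 4.7 RPKM at 25 days against 127, 187 and 196 RPKM at 20 days in high-oil embryos. In low-oil embryos it had 6.96, 25.3 and 7.21 RPKM at 25 days against 258, 128 and 163 RPKM at 20 days (log2 -3.77, SE 0.38, limma adjusted p 2.7e-08). The ages did not overlap in either line. Zm00001d039049 (log2 -3.00, SE 0.21, adjusted p 3.2e-11), Zm00001d007187 (log2 -2.90, SE 0.24, adjusted p 7.6e-10) and Zm00001d027939 (log2 -2.68, SE 0.29, adjusted p 7.7e-08) followed. Between 25 and 30 days the largest falls were those of Zm00001d029526 (log2 -1.76, adjusted p 0.0076), Zm00001d017502 (log2 -1.55, adjusted p 0.018), Zm00001d045254 (log2 -1.52, adjusted p 0.0045) and Zm00001d026160 (log2 -1.25, adjusted p 0.014). All 4 calls ended when only the compared groups were fitted, with adjusted p of 0.072, 0.079, 0.055 and 0.11. That of Zm00001d017502 also ended without any 1 of 4 libraries (adjusted p 0.051 to 0.064), namely library 2 of high-oil day 25, library 2 of high-oil day 30, library 3 of low-oil day 25 and library 2 of low-oil day 30. That of Zm00001d026160 ended without library 2 of high-oil day 30 (log2 -0.93), with a pseudocount of 0.1 (adjusted p 0.11) and with limma-voom (adjusted p 0.2). Between 30 and 35 days the largest fall was that of Zm00001d042527 (log2 -2.48, SE 0.33, adjusted p 2.3e-05), which had 2.04, 0 and 0 RPKM at 35 days against 6.45, 10.6 and 14.7 RPKM at 30 days in high-oil embryos. In low-oil embryos it had 0.0703, 0.756 and 1.27 RPKM at 35 days against 3.57, 12.4 and 3.67 RPKM at 30 days. Zm00001d021063 (log2 -1.80, SE 0.18, adjusted p 1.1e-06) and Zm00001d003104 (log2 -1.79, SE 0.16, adjusted p 1.4e-07) also fell, as did Zm00001d029526 (log2 -1.54, SE 0.38, adjusted p 0.01), whose call ended with limma-voom (adjusted p 0.079). Zm00001d021063 and Zm00001d003104 were among the 11 genes that reached 1 RPKM in at least the 35-day group of each line, and their middle of the fall lay between 28.3 and 30.8 days in either line.

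A few genes left the common course. Zm00001d051697 was the earliest to go. It had 19.0, 22.5 and 34.4 RPKM at 15 days in high-oil embryos and 21.5, 16.1 and 28.0 RPKM in low-oil embryos. At 20 days it had 0.236, 0.0265 and 0.741 RPKM in high-oil embryos and 3.43, 0.519 and 0.46 RPKM in low-oil embryos. It was 75.6-fold lower at 20 than at 15 days in high-oil embryos and 14.9-fold lower in low-oil embryos, and at 35 days it had 0 reads in all 6 libraries. The line difference of Zm00001d051697 at 20 days did not pass the test (log2 -0.72, 95% interval -1.27 to -0.17, limma adjusted p 0.088). No other gene of the set lay below 1 RPKM at 20 days. The next to stay below 1 RPKM in both lines, from 30 days on, included Zm00001d039049, Zm00001d021583 and Zm00001d027589, and the last, not before 40 days, included Zm00001d034062, Zm00001d003085, Zm00001d000506 and Zm00001d032565.

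Zm00001d017502 and Zm00001d045254 were the only genes of the 92 with their highest mean at 20 days in a line. Zm00001d017502 averaged 65.7 ± 31.5 RPKM at 20 days and 31.0 ± 2.9 RPKM at 15 days in high-oil embryos (SD, n = 3), while in low-oil embryos it averaged 21.9 ± 2.16 and 23.1 ± 5.67 RPKM. Zm00001d045254 had its peak in the other line: its libraries had 25.6, 17.3 and 20.0 RPKM at 20 days against 31.7, 23.3 and 21.5 RPKM at 15 days in high-oil embryos, and 50.5, 52.6 and 45.1 RPKM at 20 days against 27.8, 38.2 and 21.4 RPKM at 15 days in low-oil embryos. At 20 days neither line difference was called (log2 1.40, 95% interval 0.29 to 2.51, adjusted p 0.1 for Zm00001d017502, and log2 -1.21, 95% interval -2.10 to -0.33, adjusted p 0.07 for Zm00001d045254, limma).

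The comparison of the lines at the same age asked whether the decline differed between high-oil and low-oil embryos. Few genes of the set were called. At 20 days 1 of 92 was called (1.09%, against 6.85% of all features), at 25 days 3 (3.26%, against 7.36%), at 30 days 1 (1.09%, against 6.3%) and at 35 days 0 (against 8.27%). Of the other early genes, 2.09%, 2.68%, 2.06% and 4.24% were called at these ages, so the set lay near them at 20, 25 and 30 days. The rule set the same limits for both lines at 15 and 40 days, and its part in these counts was not tested. At 35 days 5 genes had an unadjusted p below 0.05 in limma, limma-voom on the recovered reads called 0, and a pseudocount of 0.1 gave 5 calls. The counts at the other ages also moved with the settings, to 4 at 20 days with limma-voom and to 7 at 30 days with median-of-ratios scaling. Averaged over these 4 ages limma called 0 genes, against 6.17% of all features and 1.65% of the other early genes. An unadjusted p below 0.05 was reached by 14 genes in limma, and limma-voom called 3. By the adjusted p alone 3, 5, 5 and 3 genes differed at the 4 ages and 9 on average, against 11.3%, 16.2%, 10.4%, 14.6% and 28.1% of all features. A count without a call does not show that the lines were equal. Adding 1 to every value also shrinks line differences where levels are low. This bears most on 35 days, where the medians of the set were 0.445 RPKM in high-oil and 0.396 RPKM in low-oil embryos. It bears less on 30 days, with 1.93 and 1.19 RPKM. At 20 days the medians were 10.9 and 14 RPKM, and the added 1 changes little there.

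The gene called at 20 days was Zm00001d010039, where 3.54% of all features were called lower. It had 5.91, 5.7 and 4.7 RPKM in the high-oil libraries and 19.1, 12.4 and 14.5 RPKM in the low-oil libraries. The lines did not overlap, and the gene was lower in high-oil embryos (log2 -1.33, SE 0.26, limma adjusted p 0.00055). At 15 days it had 54.4, 82.6 and 92.9 RPKM in high-oil embryos and 99.0, 84.4 and 114 RPKM in low-oil embryos, and at 25 days the difference was -0.16 (95% interval -0.70 to 0.38, adjusted p 0.73).

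At 25 days 2 genes were higher and 1 was lower in high-oil embryos, against 3.24% higher and 4.12% lower of all features. Zm00001d026160 had 12.3, 8.92 and 4.32 RPKM in the high-oil libraries and 0, 3.39 and 1.92 RPKM in the low-oil libraries, again without overlap (log2 1.93, SE 0.42, limma adjusted p 0.0015). Zm00001d011834 had 14.8, 14.8 and 8.96 RPKM in high-oil embryos and 5.71, 4.46 and 6.46 RPKM in low-oil embryos (log2 1.06, SE 0.25, adjusted p 0.0034). Its high-oil mean of 12.9 RPKM at 25 days stood above the 11.1 RPKM of 20 days. Zm00001d039049 had 0.552, 1.31 and 1.54 RPKM in high-oil embryos and 2.81, 7.75 and 2.67 RPKM in low-oil embryos (log2 -1.25, SE 0.29, adjusted p 0.0032). The call for Zm00001d039049 also ended with a pseudocount of 0.1 (adjusted p 0.058) and with limma-voom (adjusted p 0.15). The calls for Zm00001d026160 (adjusted p 0.064) and Zm00001d039049 (adjusted p 0.066) ended when only the 2 compared groups were fitted. That for Zm00001d011834 fell below 1 log2 unit without any 1 of 3 libraries, library 1 of high-oil day 25 (0.95), library 2 of high-oil day 25 (0.95) or library 2 of low-oil day 25 (0.94). Zm00001d039049 was at -0.84 (adjusted p 0.05) without library 2 of low-oil day 25, and the count of calls was 7 without library 3 of low-oil day 25.

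**Figure D2:**
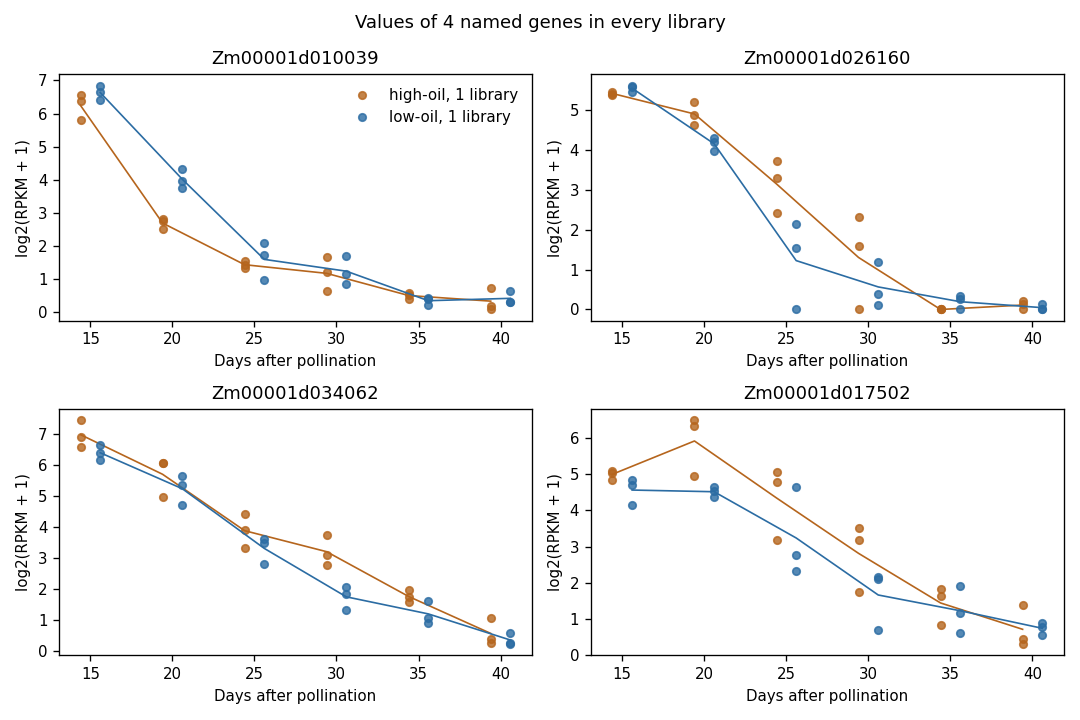
Values of 4 genes in every library, as log2(RPKM + 1) against days after pollination, with high-oil libraries drawn just left of low-oil libraries and lines through the group means. Zm00001d010039 is lower in high-oil embryos at 20 days, Zm00001d026160 is higher at 25 days and Zm00001d034062 is higher at 30 days without overlap, while for Zm00001d017502 the high-oil libraries of 20 days spread over 29.8 to 88.5 RPKM.

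At 30 days Zm00001d034062 was higher in high-oil embryos, with 7.53, 5.8 and 12.4 RPKM against 3.2, 1.51 and 2.55 RPKM in low-oil embryos (log2 1.46, SE 0.33, limma adjusted p 0.0027). Of all features, 2.92% were called higher. The rest of the set leaned the same way at this age. In 82 of 92 genes the high-oil mean of the log2 values was the higher one, with a median difference of 0.44, against 48.9% of the other early genes with a median of -0.01. All 3 high-oil libraries lay above all 3 low-oil libraries in 28 genes, 30.4% of the set against 11% of all features tested. The libraries' medians over the 92 genes were 1.55, 1.32 and 2.87 RPKM in high-oil embryos and 1.01, 1.28 and 0.946 RPKM in low-oil embryos, which did not overlap, by a narrow margin. The lean was smaller without library 3 of high-oil day 30, with 72 genes higher in high-oil embryos and a median of 0.23, while the other 5 libraries left out in turn gave 81 to 87 genes and medians of 0.40 to 0.54. Zm00001d034062 ended as a call with limma-voom on the recovered reads (adjusted p 0.065).

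The lean at 20 days was the reverse of that at 30 days. Of 92 genes, 73 were lower in high-oil embryos at 20 days, with a median difference of -0.20, against -0.02 in the other early genes. All high-oil libraries lay below all low-oil libraries in 19 genes, 20.7% against 15.4% of all features tested. The library medians at 20 days were 9.67, 11.7 and 12.4 RPKM in high-oil embryos and 15.2, 13.6 and 11.8 RPKM in low-oil embryos, and these overlapped. Without library 1 of high-oil day 20 the lean nearly disappeared, with 52 genes lower and a median of -0.07, against 69 to 76 genes lower without any other library of that age. At 15 days, where the rule used the values, 76 genes were higher in high-oil embryos, with a median difference of 0.18. At 25 days 37 were higher and 55 lower, a split that turned to 56 higher with median-of-ratios scaling, which moved the median difference of all features from -0.13 to 0.01. At 35 days 57 were higher. As shares of the set these counts of higher genes were 82.6% at 15 days, 40.2% at 25 days and 62.0% at 35 days. Of the other early genes, 42.7%, 31.1% and 30.7% were higher at these ages. With the same scaling 21 were higher at 20 days and 83 at 30 days.

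**Figure D3:**
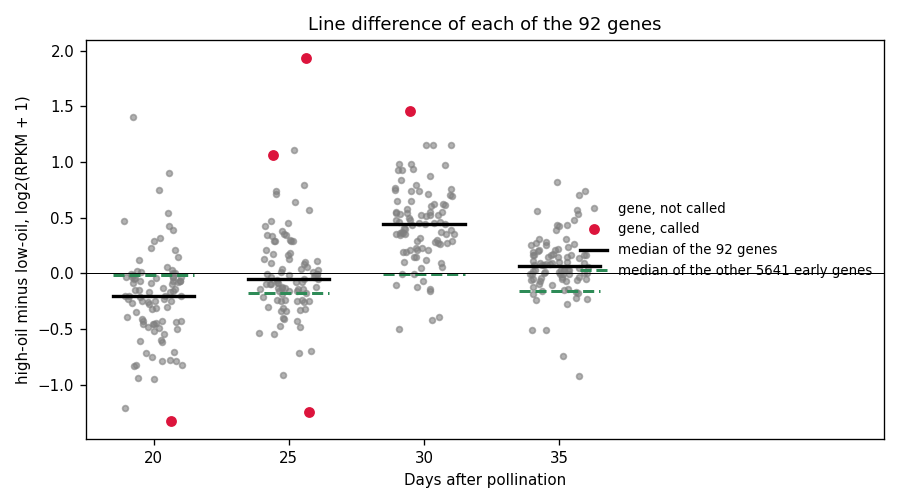
Line difference of each gene at 20, 25, 30 and 35 days, as high-oil minus low-oil on the log2(RPKM + 1) scale; each dot is 1 of the 92 genes and red dots were called by limma. The median of the set is -0.20 at 20 days and 0.44 at 30 days, while the dashed median of the other early genes is -0.02 and -0.01.

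The difference in course itself was tested as the interaction of line and step. The interaction of line with the step up to 25, up to 30 and up to 35 days gave 0 calls each (limma, adjusted over 28048 features, against 0.838%, 0.0784% and 0.00713% of all features), and limma-voom gave 0 each. For the step up to 25 days there was 1 call with median-of-ratios scaling, 1 without the 3 libraries of lowest correlation and 1 when any of 8 single libraries was left out. An unadjusted p below 0.05 was reached by 10, 14 and 6 genes at these 3 steps. The step between 25 and 30 days had an interaction above 0, a smaller fall in high-oil embryos, in 80 of 92 genes, with a median of 0.45 against 0.17 for the other early genes and 0.06 for all features. That median was 0.22 (64 genes above 0) without library 2 of low-oil day 25, 0.27 (68 genes) without library 3 of high-oil day 30 and 0.84 (81 genes) without library 3 of low-oil day 25. For the step between 30 and 35 days the median was -0.33, against -0.15 for the other early genes and -0.04 for all features, and 79 genes lay below 0. Without library 3 of high-oil day 30 the median was -0.16 and 63 genes lay below 0.

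At 35 days some line differences passed the adjusted p but missed the minimum of 1 log2 unit. By the adjusted p alone, 3 genes of the set differed at that age, named here after their values were seen, which is 3.26% against 14.6% of all features. Zm00001d033999 had 0.208, 0.18 and 0.544 RPKM in the high-oil libraries and 1.29, 1.21 and 1.95 RPKM in the low-oil libraries (log2 -0.92, SE 0.27, limma adjusted p 0.018). Its line difference was -0.91 at 25 days and -0.16 at 30 days. Zm00001d015485 had 0.602, 0.395 and 0.402 RPKM in high-oil embryos and 0.871, 1.66 and 1.92 RPKM in low-oil embryos (log2 -0.74, SE 0.25, adjusted p 0.049). Both were lower in high-oil embryos without overlap, and they are among the 4 genes that went below 1 RPKM earlier there. Zm00001d003104 was higher in high-oil embryos, with 3.25, 2.18 and 3.5 RPKM against 0.543, 1.56 and 1.77 RPKM (log2 0.82, SE 0.22, adjusted p 0.011). At 20 days its difference was -0.25, of the opposite sign and not called.

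**Figure D4:**
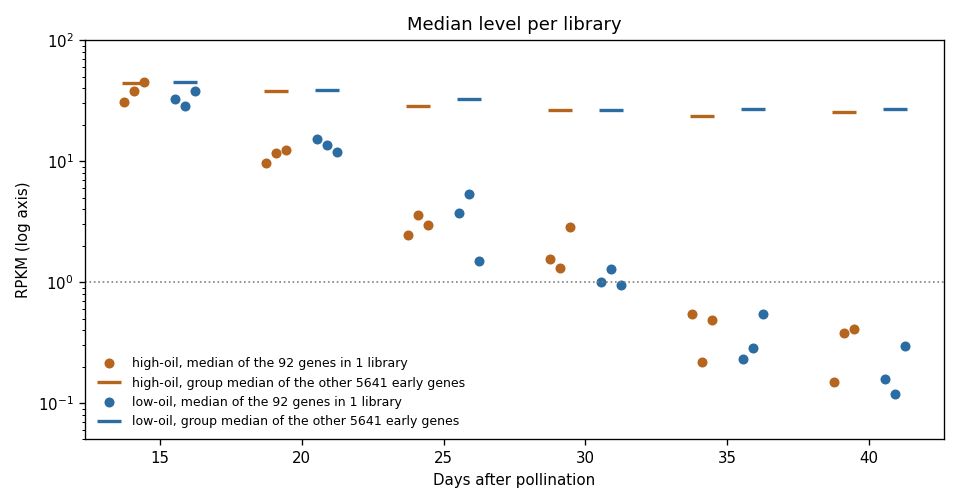
Median RPKM of the 92 genes in each of the 36 libraries (dots, log axis) by days after pollination, high-oil left of low-oil, with the group median of the other 5641 early genes as dashes. The dots lie at 28.6 to 44.9 RPKM at 15 days and at 0.118 to 0.412 RPKM at 40 days, and the low-oil libraries of 25 days are spread from 1.5 to 5.33 RPKM.

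Within a group the 92 genes moved together from library to library. The rule did not use the values at 20 to 35 days, but it chose genes that share a fall, so this movement is not independent of the rule. Library 3 of low-oil day 25 had a median of 1.5 RPKM over the set, against 3.73 and 5.33 RPKM in libraries 1 and 2, and 84 of 92 genes were lower in it than in the mean of the other 2 libraries. The median departure of that library was -0.98 log2 units for the set and 0.04 for the other early genes. Library 2 of low-oil day 25 departed by 0.82 with 86 genes above, and library 3 of high-oil day 30 by 0.65 with 87 genes above, where the other early genes departed by 0.00 and 0.01. At 35 days the set and the other early genes of high-oil library 2 departed alike, by -0.25 and -0.31. In low-oil embryos of that age they departed in opposite directions, by 0.21 and -0.23 in library 3 and by -0.07 and 0.22 in library 2.

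**Figure D5:**
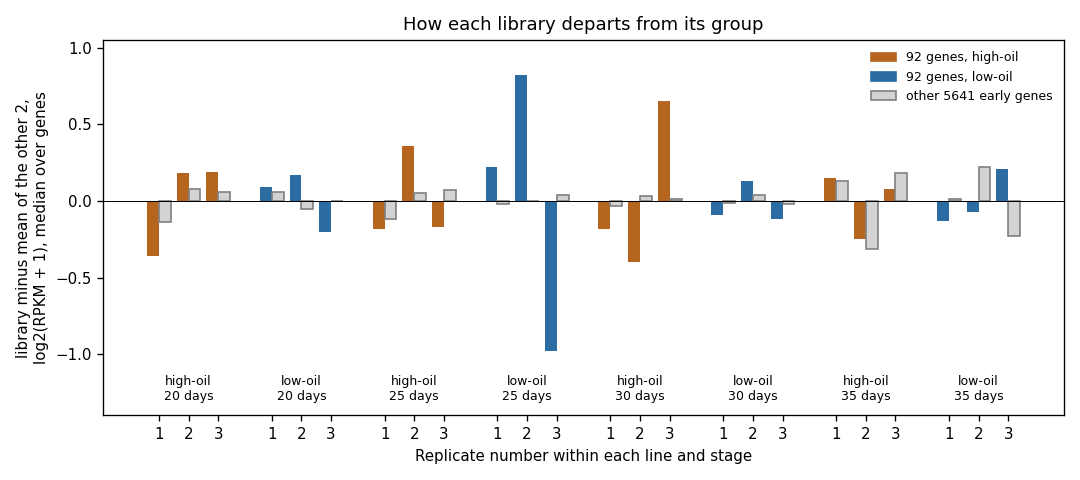
Departure of each library of 20 to 35 days from the mean of the other 2 of its group, as the median over genes on the log2(RPKM + 1) scale, for the 92 genes (coloured) and the other 5641 early genes (grey). Libraries 2 and 3 of low-oil day 25 stand at 0.82 and -0.98 for the 92 genes with grey bars near 0.

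Over the 24 libraries of 20 to 35 days, the departures of a gene from its group means correlated with the median departure of the remaining 91 genes with a median r of 0.755, and 74 of 92 genes exceeded 0.5. For the other early genes, set against the median of the 92, the median r was 0.0357 and 449 of 5641 (7.96%) exceeded 0.5. Only the genes of the set were compared with their own set, so these medians are not like measures. These correlations describe 24 libraries that share depth, scaling and soaking among the genes, and carry no p. The median r of the set was 0.655 without the 3 low-oil 25-day libraries and 0.751 to 0.773 without any other group. The highest values belonged to Zm00001d021395 (0.945), Zm00001d023810 (0.929) and Zm00001d013268 (0.922). Because the genes of a group rose and fell together between libraries, counts of genes that lean to one line are not independent observations.

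A few genes did not share this movement. Zm00001d017502 had the lowest correlation (-0.181), and in library 3 of low-oil day 25, where most of the set was low, it had 23.8 RPKM against 5.77 and 4.01 RPKM in libraries 1 and 2. Zm00001d048987 (-0.0558), Zm00001d003085 (0.0705) and Zm00001d051697 (0.0912) came next, the last of them at or near 0 reads from 25 days on. Zm00001d003085 had 18.7 RPKM in that library against 11.7 and 11.2 RPKM in the other 2. What the shared movement follows was not tested.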

How the data were processed

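The authors deposited 1 table of RPKM values, with 1 column for each of the 36 libraries of polyadenylated RNA from whole embryos, and 0 columns were left unused. FastQC, TopHat2, Cufflinks and the build B73 RefGen_v4 are named per the submitters' processing notes, and no source used here gives the counting tool, annotation release or strand. The deposited RPKM values were whole multiples of 1 read for 100% of 51853 features within 0.0001 reads, which gave reads, library totals and feature lengths. The length is the smallest that makes the reads whole.

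The genes and all lists were chosen with earlier results of these data known. Limma 3.58.1 in R 4.3.3 was run on log2(RPKM + 1) with a mean for each of 12 groups and a mean-variance trend, over features with at least 1 RPKM in 3 libraries, with Benjamini-Hochberg adjustment. It was tested on simulated data. A fold change on this scale understates changes of low genes. Limma's 95% interval is given beside some log2 values. Genes were named by these rules: the 10 highest at 15 days, up to 4 called per direction in each line difference, the 4 largest falls per step, the 2 on either side of each threshold, and the first and last to fall below 1 RPKM. Same-numbered libraries of the lines did not deviate together at every age (5 of 18 pairs above 0.1), so no pairing was used. Lists by gene name could not be used, since no ID matched. Alternatives were median-of-ratios scaling, the adjusted p alone, a pseudocount of 0.1, a filter at 5 RPKM or none, fitting only the groups compared, a replicate block and each library left out. Limma-voom on the recovered reads took the place of a planned count test. This fit, a fit without 3 libraries, and counts of genes leaning to a line with each library left out, were added after the data were seen.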

Additional observations from a re-analysis of the deposited data

How the results depend on the processing

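The size of the set depended on its thresholds: it held 204 genes with 10 RPKM at 15 days, 31 with 40 RPKM, 55 with 0.5 RPKM at 40 days, 146 with 2 RPKM, 59 with median-of-ratios scaling and 46 when every replicate had to pass, against 92. From 30 days on, 47 genes were below 2 RPKM and 1 below 0.5 RPKM in high-oil embryos, and 72 and 5 in low-oil embryos. The falls between 20 and 25 days gave 86 to 92 calls under every setting tried. Between 25 and 30 days 11 genes were called lower with median-of-ratios scaling, 8 with only the groups compared and 49 by the adjusted p alone. With 1 library left out the count was 7 to 32. Between 30 and 35 days 61 were called lower by the adjusted p alone, 52 with limma-voom and 73 with a pseudocount of 0.1. With 1 library left out the count was 16 to 32. Line differences at 20 days gave 3 calls by the adjusted p alone, 3 with only the groups compared and 4 with limma-voom (1 to 2 with 1 library left out, 2 without library 1 or 2 of high-oil day 20, library 2 of low-oil day 20, library 3 of high-oil day 30, library 3 of low-oil day 25 or library 2 of low-oil day 30). At 25 days they gave 5 by the adjusted p alone and 1 with only the groups compared (2 to 7). At 30 days they gave 7 with median-of-ratios scaling, 5 by the adjusted p alone and 2 with a pseudocount of 0.1 (1 to 6; 5 without library 2 of high-oil day 30 and 6 without library 2 of low-oil day 30, and 2 without library 1 of high-oil day 30, library 3 of low-oil day 30 or library 2 or 3 of low-oil day 25). At 35 days they gave 3 by the adjusted p alone and 5 with a pseudocount of 0.1 (0 to 1, the 1 without library 3 of high-oil or of low-oil day 35). Averaged over these ages they gave 9, 2 with that pseudocount, 1 with median-of-ratios scaling and 3 with limma-voom (0 to 1, the 1 for each of 8 libraries left out). The interaction for 20 to 25 days gave 1 call with median-of-ratios scaling and 1 without the 3 libraries of lowest correlation (0 to 1, the 1 for each of 8 libraries left out), and the other 2 interactions gave 0 throughout. The cause of these changes was not tested, except that the adjusted p alone drops the minimum change. For the genes named in a test, 744 of the repeated values kept their call, 21 lost it and 0 changed sign. Many of these repeats left out 1 library that the comparison did not use, which leaves the log2 value unchanged. The pooled count therefore says little about how firm each call is. With the replicate number as a block the counts of calls were 87, 17 and 24 falls and 1, 3, 1 and 0 line differences, as without it. The numbers gave no steady pairing of the libraries. The departures of same-numbered libraries of the lines correlated by -0.296 to 0.394, above 0.1 in 5 of 18 pairs. They were 0.394, 0.308 and 0.0984 at 40 days and -0.11, -0.296 and -0.188 at 35 days. Between neighbouring ages of a line 8 of 30 pairs were above 0.1. Shared handling at single ages was not tested. A planned count test was not run, and limma-voom on the reads recovered from the RPKM values was used in its place.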
